A study of Mus musculus with 6 samples.

Results

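Cohesin subunits and CTCF were followed in germinal center (GC) B cells and in naive B cells of the mouse. The 7 genes were chosen by name, though with earlier results of these data known. All 7 were found among the 39179 Ensembl gene identifiers with a value: *Smc1a*, *Smc3* and *Rad21*, which encode the cohesin ring, *Stag1* and *Stag2*, *Nipbl*, and *Ctcf*. They also passed the filter on low values, which left 12785 genes for testing. The study profiled total RNA by RNA-Seq from B cells of Peyer's patches, organized lymphoid tissue of the intestinal wall where gut antigens keep GCs going, taken from the ileum of wild-type C57BL/6 female mice aged 12 wk. GC B cells were sorted as Fas+GL7+ and naive, or resting, B cells as Fas-GL7-. Each population had 3 biological replicates, each a pool of littermates, so that differences between single mice are averaged within a pool.

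Cohesin is a ring-shaped complex in which SMC1A and SMC3 form the long arms and the kleisin RAD21 closes the ring, while STAG1 or STAG2 binds to RAD21 as the remaining subunit. NIPBL, with its partner MAU2, loads cohesin onto chromatin and drives loop extrusion, WAPL releases it, and CTCF bound to DNA in the right orientation halts it at loop anchors and domain borders. The same complex holds sister chromatids together from replication to anaphase, and in B cells the loops made by cohesin and CTCF bring together distant parts of the Ig heavy chain locus during V(D)J and class switch recombination.

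RefSeq promoter windows (build GRCm38.p6) were found for 4 of the 7 genes: *Smc1a*, *Smc3*, *Stag1* and *Ctcf*. Those of the SMC subunits that form the arms of the ring are shown, because the mean RNA level of both was more than 2 times as high in the 3 GC pools as in the 3 naive pools. For *Smc3* this ratio was 2.07, and without naive replicate 3 its log2 fold change was 0.92. The 200 bases before the *Smc1a* start lie at chrX:152016228-152016427 and those before the *Smc3* start at chr19:53600196-53600395, both on the plus strand. Capitals mark a GC box (GGGCGG, or CCGCCC on the other strand), which Sp1-family factors bind, and a CCAAT box (here as ATTGG on the other strand), which NF-Y binds.
Smc1a: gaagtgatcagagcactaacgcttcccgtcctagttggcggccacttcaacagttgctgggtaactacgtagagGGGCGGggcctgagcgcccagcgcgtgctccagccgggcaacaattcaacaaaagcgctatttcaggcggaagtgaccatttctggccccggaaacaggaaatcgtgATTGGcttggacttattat
Smc3: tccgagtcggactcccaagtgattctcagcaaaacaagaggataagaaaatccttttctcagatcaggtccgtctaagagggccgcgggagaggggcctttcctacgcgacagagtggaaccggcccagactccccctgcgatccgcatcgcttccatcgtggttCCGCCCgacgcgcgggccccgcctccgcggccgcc

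Of these bases, 55.0% were G or C before *Smc1a* and 63.0% before *Smc3*, against a median of 53.0% over the same window of 32851 promoters. The windows were searched on both strands, over 300 bases (250 before and 50 after the start), for 4 motifs whose matches in these genes did not overlap. The E2F site TTTCCCGC, bound by factors that act at the G1 to S transition, is in 1.07% of all promoters. Among the 4 windows it was found in that of *Smc1a*, 38 bases after the start (chrX:152016457-152016477, site in capitals), and in that of *Stag1*, 17 bases before it.
Smc1a E2F site: ctgcgctaTTTCCCGCgcggg
GC boxes, in 35.7% of all promoters, were found in all 4 windows, with 4 of them before *Stag1* and 1 before each of the others. CCAAT was found before *Smc1a* and *Stag1* and is in 37.4% of all promoters. The CHR element TTTGAA, through which cell cycle genes are repressed in quiescent cells, is in 17.9% of all promoters and was found before *Ctcf* alone among the 4. The 200 bases before the *Stag1* start used here lie at chr9:100643248-100643447. This is inside the annotated span of the gene (chr9:100597709-100958544) and not at its outer end. The 200 bases before the *Ctcf* start used here (chr8:105636338-105636537) also reach into the annotated span of that gene, which begins at 105636474. These letter matches were not tested for binding.

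The libraries were first examined as a whole. Expression is given in TPM, the share of a gene's transcripts among all transcripts, corrected for transcript length and scaled to a total of 1000000 per pool, which was computed from the deposited FPKM values (fragments per kilobase of transcript, scaled to library size). The approximate depth was between 9700000 and 16100000 reads per pool, which is from about 500 reads (*Stag1*) to about 5600 reads (*Smc1a*) per gene of the 7 and pool. Pools of the same population correlated with Pearson's r of 0.963 to 0.972 across genes and pools of different populations with r of 0.806 to 0.814. All 5 markers of GC B cells were higher in GC pools, and all 6 of naive B cells were lower. The 6 T cell markers summed to at most 3.68 TPM and the 6 myeloid markers to at most 7.87 TPM in any pool. Epithelial markers (8 genes, of which *Krt8* was the highest and none was at 0 in all pools) summed to between 27.8 and 49.3 TPM in GC pools and to between 59.7 and 92.3 TPM in naive pools, so that their sum was higher in the naive pools, although of the 7 tested 4 were called lower in GC B cells, 1 higher and 2 were not called (limma). Plasma cell markers (4 genes, *Xbp1* the highest) summed to between 131 and 135 TPM in GC and between 192 and 212 TPM in naive pools, with 1 called higher and 3 lower. Stromal and endothelial markers (5 genes, 3 under 1 TPM in all pools) summed to between 22.6 and 24.7 TPM in GC pools. In naive pools they summed to between 122 and 132 TPM, with *Pecam1* the highest. The part of these markers in the results was not tested. Naive replicate 3 stood apart, in that its long transcripts were lower than in the other naive pools: the median log2 difference from those pools was -0.15 over the 2757 genes with transcripts of 3328.5 bases or more and 0.00 over the 2760 genes with transcripts of 1294 bases or less.

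GC and naive B cells were then compared. RNA of the 3 ring subunits was between 2.07 and 2.65 times as high in GC as in naive pools, that of both STAG subunits and of *Ctcf* rose by less, and that of *Nipbl* did not pass the test. In all, 6 of the 7 genes were called higher in GC B cells and none lower (limma, Benjamini-Hochberg adjusted p under 0.05 over all 12785 genes). With the same test, 35.5% of all genes tested were called higher, 30.1% lower and 65.6% in either direction, so that a call by itself was common in this comparison. For the same 6 genes every GC pool lay above every naive pool, which held for 37.8% of all genes tested, while the pools of another 32.8% were apart the other way (70.7% in either direction). The median log2 fold change was 0.58 over the 7 genes and 0.03 over all genes tested. Fold changes are differences of log2(TPM + 1), a scale that understates the change of weakly expressed genes. In bulk samples, fewer cells of a type and less RNA per cell cannot be told apart.

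**Figure D1:**
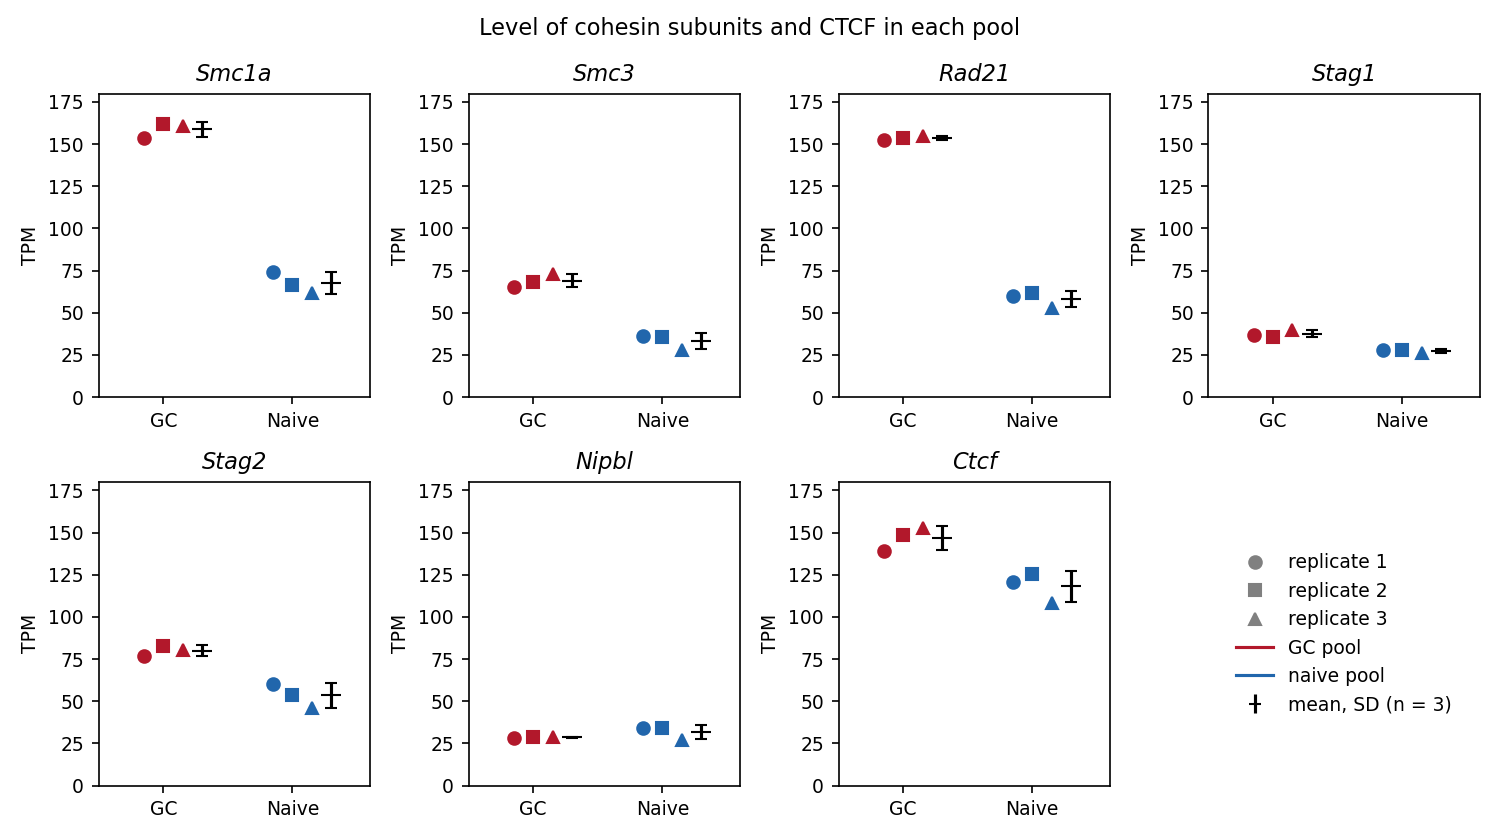
Level in TPM (y axis, from 0, the same in each panel) of the 7 genes in each of the 3 GC pools (red) and the 3 naive pools (blue), with the marker shape giving the replicate and black marks the mean and SD (n = 3). Every GC pool lies above every naive pool in all panels but that of *Nipbl*, where GC pools between 28.3 and 29.0 TPM fall inside the naive range of 27.2 to 34.1 TPM.

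*Smc1a* (ENSMUSG00000041133, chrX:152016428-152061973) encodes an arm of the ring with one ATPase head. It measured 154, 162 and 160.5 TPM in GC replicates 1, 2 and 3 and 74.4, 66.4 and 61.9 TPM in naive replicates 1, 2 and 3. The 2 populations did not overlap, and the GC mean of 159 ± 4.5 TPM (SD, n = 3) was 2.35 times the naive mean of 67.6 ± 6.34 TPM (SD, n = 3). The log2 fold change was 1.22 (SE 0.07, 95% interval 1.04 to 1.40), with an adjusted p of 1.76e-05 (limma). *Smc1a* overlaps *Ribc1* and *Gm15267* in the annotation, and whether strand was used in counting is not given in the sources used here. The RNA of these was low, between 0.890 and 9.89 TPM for *Ribc1* and at most 5.41 TPM for *Gm15267*.

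*Smc3* (ENSMUSG00000024974, chr19:53600396-53645831) encodes the other arm, whose head is acetylated when cohesion is established. Its levels were 65.2, 68.4 and 72.9 TPM in GC replicates 1, 2 and 3 and 36.3, 35.6 and 27.9 TPM in the naive replicates. All GC pools were above all naive pools, with means of 68.9 ± 3.85 and 33.3 ± 4.68 TPM (SD, n = 3 each), a ratio of 2.07. On the log2 scale the difference was 1.04 (SE 0.11, 95% interval 0.77 to 1.30, limma adjusted p = 0.000251). In both populations *Smc3* RNA was the least abundant of the 3 ring subunits.

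*Rad21* (ENSMUSG00000022314, chr15:51962604-51993538), the kleisin that separase cleaves at anaphase, had the largest change of the 7 genes. It was measured at 152, 154 and 155 TPM in GC replicates 1, 2 and 3 and at 59.8, 61.5 and 52.6 TPM in the naive replicates. The GC pools were close to each other (154 ± 1.13 TPM, SD, n = 3) and well above the naive pools (58.0 ± 4.72 TPM, SD, n = 3), a ratio of 2.65. The log2 fold change was 1.39 (SE 0.07, 95% interval 1.23 to 1.55, limma adjusted p = 6.17e-06), which is above that of 90.2% of the genes tested. The corresponding shares were 88.3% for *Smc1a* and 85.6% for *Smc3*. Summed over *Smc1a*, *Smc3* and *Rad21*, ring RNA was 381 ± 8.81 TPM in GC and 159 ± 14.7 TPM in naive pools (SD, n = 3 each).

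The STAG subunits rose less. *Stag1* (ENSMUSG00000037286, chr9:100597709-100958544), whose product acts at telomeres as well as along chromosome arms, had 37.1, 35.8 and 40.0 TPM in GC replicates 1, 2 and 3 and at 28.0, 28.2 and 26.2 TPM in the naive replicates. The pools did not overlap, and the means of 37.6 ± 2.14 and 27.5 ± 1.13 TPM (SD, n = 3 each) stood in a ratio of 1.37. The log2 fold change of *Stag1* was 0.44 (SE 0.07, 95% interval 0.27 to 0.60, limma adjusted p = 0.00142). With the same correction for base composition and transcript length, which was chosen after seeing the data, it was 0.27 (limma adjusted p = 0.00484). *Stag2* (ENSMUSG00000025862, chrX:42149297-42277186), the paralog that is often mutated in cancer, measured 76.6, 83 and 80.6 TPM in the GC replicates and at 60.4, 53.9 and 46.0 TPM in the naive replicates. Here too every GC pool was higher, with means of 80.1 ± 3.21 and 53.5 ± 7.22 TPM (SD, n = 3 each) and a ratio of 1.5. The log2 fold change of *Stag2* was 0.58 (SE 0.10, 95% interval 0.34 to 0.83, limma adjusted p = 0.00247). It was 0.48 without naive replicate 3 and 0.41 with the correction (limma adjusted p = 0.00268 and 0.00221). The 95% intervals of both STAG genes lay below those of the ring subunits, except that those of *Stag2* (up to 0.83) and *Smc3* (from 0.77) overlapped. *Stag1* and *Stag2* transcripts shared no stretch of 30 bases with each other, and of the 7 genes *Stag2* alone shared any with another coding gene (17 of 6691 stretches, 0.254%).

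*Nipbl* (ENSMUSG00000022141, chr15:8289824-8465315), which encodes the loader, was the exception. It was measured at 28.3, 28.7 and 29.0 TPM in GC replicates 1, 2 and 3 and at 34.0, 34.1 and 27.2 TPM in the naive replicates. Naive replicates 1 and 2 were above all GC pools and naive replicate 3 below them, so that the populations overlapped (28.6 ± 0.357 and 31.8 ± 3.99 TPM, SD, n = 3 each). The log2 fold change was -0.14 (SE 0.10, 95% interval -0.38 to 0.10, limma adjusted p = 0.265), and the upper bound of its interval lay below the lower bounds of all 6 other genes. The call rests on naive replicate 3: without it the log2 fold change was -0.24 and the limma adjusted p 0.0116, which is a call in the lower direction. *Nipbl* has the longest transcripts of the 7 genes (median of its coding transcripts, 8815 bases), and the part of transcript length in this change of the call was not tested. With the correction for base composition and length, the log2 fold change was -0.32 (limma adjusted p = 0.00175). This correction moved the median of all genes by -0.11, and relative to that median the value was -0.25, against -0.17 relative to the median without correction.

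*Ctcf* (ENSMUSG00000005698, chr8:105636474-105682922) encodes the zinc finger protein that anchors loops. Its RNA amounted to 139, 149 and 153 TPM in GC replicates 1, 2 and 3 and at 120.5, 126 and 108 TPM in the naive replicates. The populations did not overlap, but the naive maximum was close to the GC minimum, and the means of 147 ± 7.08 and 118 ± 9.06 TPM (SD, n = 3 each) were in a ratio of 1.24, the smallest of the 6 genes called. The log2 fold change was 0.31 (SE 0.07, 95% interval 0.14 to 0.48, limma adjusted p = 0.00757). It was 0.18 (limma adjusted p = 0.0341) after quantile normalization of the pools and 0.12 (limma adjusted p = 0.0494) with the correction for base composition and length and lost its call (limma adjusted p = 0.0814) when that correction was combined with the replicate number as a block. Relative to the median of all genes the value was 0.28 without and 0.20 with the correction.

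The order of the levels differed between the populations. In GC B cells *Smc1a*, *Rad21* and *Ctcf* were the highest, and neighbors in this order overlapped in their ranges over pools. *Stag2*, *Smc3*, *Stag1* and *Nipbl* followed without overlap. In naive B cells *Ctcf* was above all the others without overlap, *Smc1a* came next, also without overlap, and *Rad21* and *Stag2* overlapped with each other. The lowest 3 in naive B cells, *Smc3*, *Nipbl* and *Stag1*, overlapped from neighbor to neighbor. Among all genes tested, the mean level of *Ctcf* was above that of 91.6% of genes in GC and of 90.4% in naive B cells, whereas *Rad21* was above 92.1% in GC and 79.3% in naive B cells, and *Nipbl* above 60.2% and 64.2%.

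**Figure D2:**
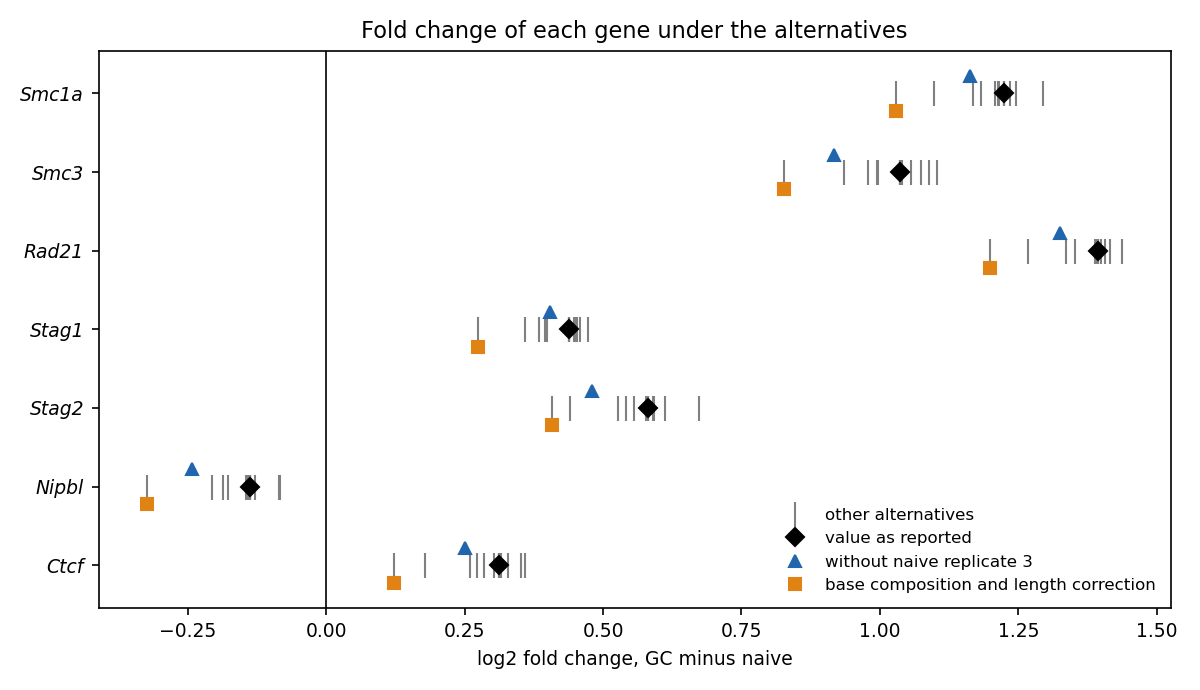
Log2 fold change, GC minus naive (x axis), of each of the 7 genes (y axis) as reported (black diamonds), without naive replicate 3 (blue triangles), with the correction for base composition and transcript length (orange squares) and under the other alternatives (grey ticks). *Rad21* stays between 1.2 and 1.44 over the 16 alternatives, *Ctcf* between 0.12 and 0.36, and *Nipbl* is negative in each, between -0.32 and -0.08.

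Ratios between genes were taken within each pool, since they do not depend on how pools are scaled to each other. With 3 pools against 3, the two-sided exact permutation test cannot give a p below 0.1, which is reached when all pools of a population are on one side. Of the STAG paralogs, *Stag1* was 32.6%, 30.1% and 33.1% of the summed *Stag1* and *Stag2* RNA in GC replicates 1, 2 and 3 and 31.7%, 34.4% and 36.3% in the naive replicates. These overlapped (32.0% ± 1.61 and 34.1% ± 2.30, SD, n = 3 each, a difference of -2.14 percentage points, exact permutation p = 0.3), and the difference was -1.06 without naive replicate 3, -1.22 without GC replicate 2 and -3.35 without naive replicate 1. Likewise the log2 ratio of *Smc3* to *Smc1a* overlapped between populations, at -1.21 ± 0.06 in GC and -1.03 ± 0.12 in naive pools (SD, n = 3 each, exact permutation p = 0.2), and the difference of -0.18 was -0.11 without naive replicate 2. The log2 ratio of *Rad21* to *Smc1a* was -0.05 ± 0.03 in GC and -0.22 ± 0.10 in naive pools (SD, n = 3 each), without overlap (exact permutation p = 0.1).

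Ratios across the parts of the system moved further. The summed STAG RNA was 0.741 times the *Smc1a* RNA in GC and 1.2 times in naive B cells, a difference of -0.69 on the log2 scale (exact permutation p = 0.1). *Nipbl* RNA was 0.181 times that of *Smc1a* in GC and 0.469 times in naive B cells, which was the largest shift, with a log2 difference of -1.38 (exact permutation p = 0.1). *Ctcf* RNA was 0.955 times that of *Rad21* in GC B cells and 2.04 times in naive B cells, a log2 difference of -1.09 (exact permutation p = 0.1). The log2 ratio of *Ctcf* to *Rad21* was between 1.01 and 1.04 in the 3 naive pools and between -0.13 and -0.02 in the 3 GC pools. None of these ratios overlapped between the populations. Among naive pools the log2 ratio of *Nipbl* to *Smc1a* was lowest in replicate 3, at -1.19, which was above all GC pools (-2.50 to -2.44).

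**Figure D3:**
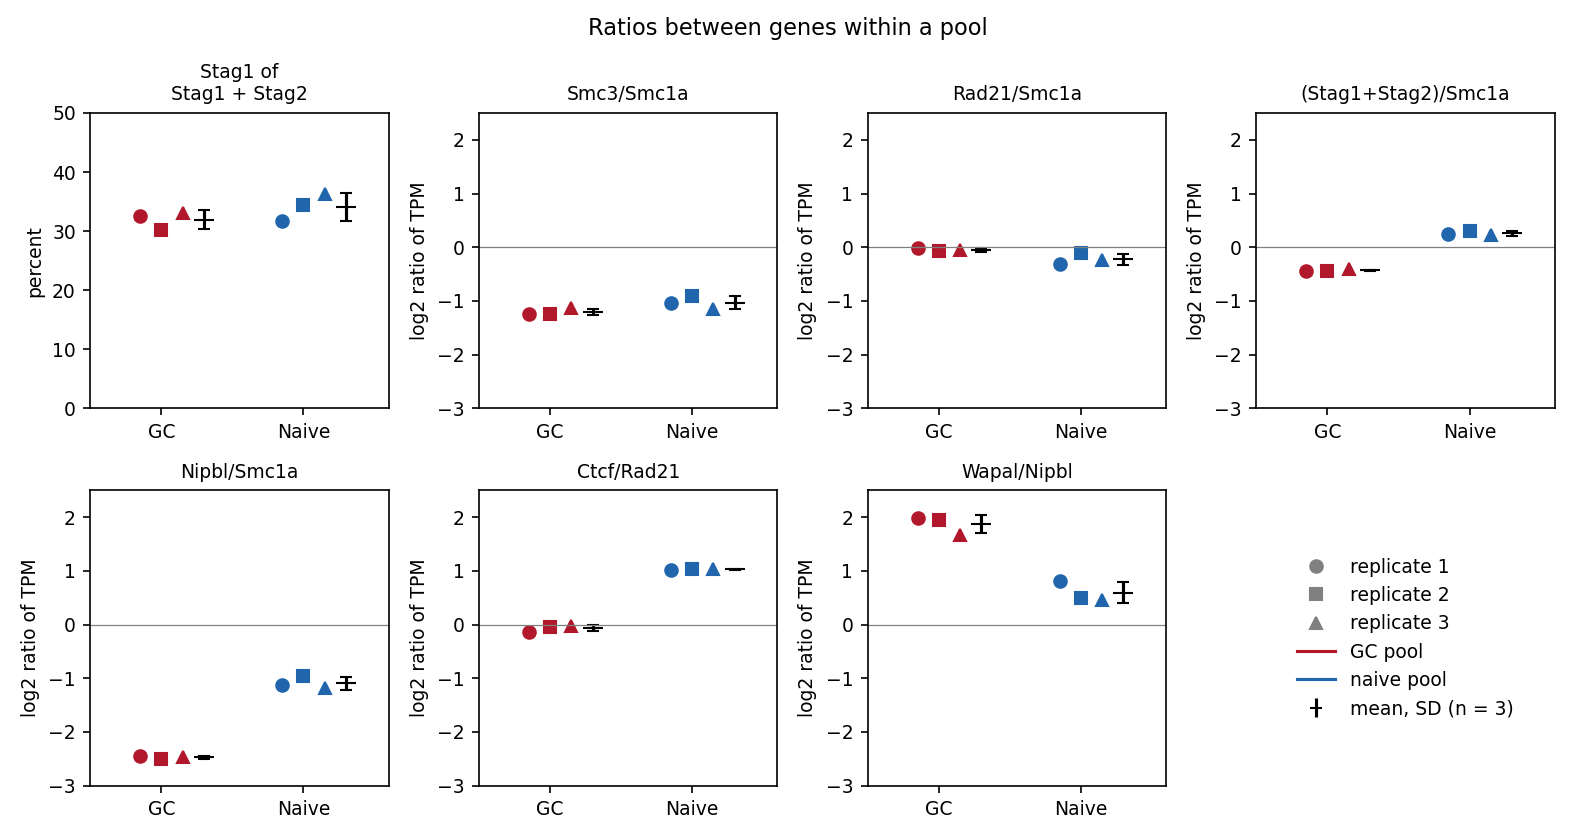
Share of *Stag1* in the summed STAG RNA (first panel, percent) and log2 ratios of TPM between genes (other panels) in each GC pool (red) and naive pool (blue), with black marks for the mean and SD (n = 3). The populations overlap in the *Stag1* share and in the *Smc3* to *Smc1a* ratio and are apart in the other 5 panels, with means of -2.47 and -1.09 for *Nipbl* to *Smc1a*.

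The 12 genes listed as cohesin regulators were described next, by what they do to the ring. In all, 9 were called higher in GC B cells, 1 lower and 2 were not called, with a median log2 fold change of 1.47, against 35.5% higher and 30.1% lower among all genes tested. Of these, *Esco2*, *Cdca5*, *Sgol1*, *Sgol2* and *Espl1* were under 1 TPM in every naive pool. They passed the filter on low values through the GC pools alone, so a call in the lower direction was not open to them. The count and the median carry this limit. *Mau2*, the partner of *Nipbl* in loading, had 31.7, 33.3 and 32.8 TPM in GC replicates 1, 2 and 3 and at 45.8, 48.9 and 41.8 TPM in the naive replicates. It was the one regulator that fell, with a log2 fold change of -0.47 (SE 0.07, limma adjusted p = 0.00139). Of the genes for release and its cofactors, *Wapal*, the gene of WAPL, had 112, 110.5 and 92.4 TPM in GC and at 60.0, 48.3 and 37.3 TPM in naive replicates 1, 2 and 3. It rose by 1.12 on the log2 scale (SE 0.17, limma adjusted p = 0.00147). *Pds5a* and *Pds5b*, whose products bind the ring and assist both WAPL and acetylation, rose by 1.0 and 0.80 on the log2 scale (limma adjusted p = 6.92e-05 and 9.20e-05). The ratio of *Wapal* to *Nipbl* RNA was 3.65 in GC and 1.51 in naive B cells, without overlap (log2 difference 1.27, exact permutation p = 0.1).

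The remaining regulators act on acetylation, the protection of cohesion and its cleavage. *Esco2*, the acetyltransferase that establishes cohesion during replication, reached 62.6, 63.4 and 67.6 TPM in GC replicates 1, 2 and 3 and under 1 TPM in each naive pool, between 0.192 and 0.621. Its log2 fold change was 5.49 (limma adjusted p = 4.94e-07). Its paralog *Esco1*, which acetylates SMC3 throughout the cell cycle, had 38.0, 38.8 and 36.6 TPM in GC and at 44.9, 43.0 and 37.1 TPM in naive replicates 1, 2 and 3, with a log2 fold change of -0.13 that did not pass the test (limma adjusted p = 0.205), though it did without naive replicate 3 (-0.21, limma adjusted p = 0.0226). *Cdca5*, which encodes sororin, the protector of cohesion against WAPL, rose from a mean of 0.460 ± 0.170 TPM in naive pools to 59.1 ± 3.03 TPM in GC pools (SD, n = 3 each), a log2 fold change of 5.37 (limma adjusted p = 2.95e-07). The shugoshin genes *Sgol1* and *Sgol2*, which guard centromeric cohesion, rose by 3.77 and 3.65 (limma adjusted p = 4.17e-06 and 7.17e-07). *Espl1*, the gene of separase, rose by 4.87 (limma adjusted p = 2.11e-07), while *Pttg1*, the gene of its inhibitor securin, was at 43.8 ± 6.02 TPM in GC and 42.5 ± 2.68 TPM in naive pools (SD, n = 3 each) and did not pass the test (log2 fold change 0.03, limma adjusted p = 0.794). The sign of *Pttg1* was negative under other scalings of the pools. Naive means of *Sgol1*, *Sgol2* and *Espl1* were 0.482, 0.383 and 0.165 TPM, so the size of their changes depends on the 1 TPM added before the log. With 0.1 added instead, their log2 fold changes were 5.14, 5.11 and 6.97. The same limit holds for *Esco2* and *Cdca5*, whose log2 fold changes were then 6.94 and 6.77. *Hdac8*, which deacetylates SMC3 for reuse, rose by 1.83 (limma adjusted p = 1.47e-05).

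**Figure D4:**
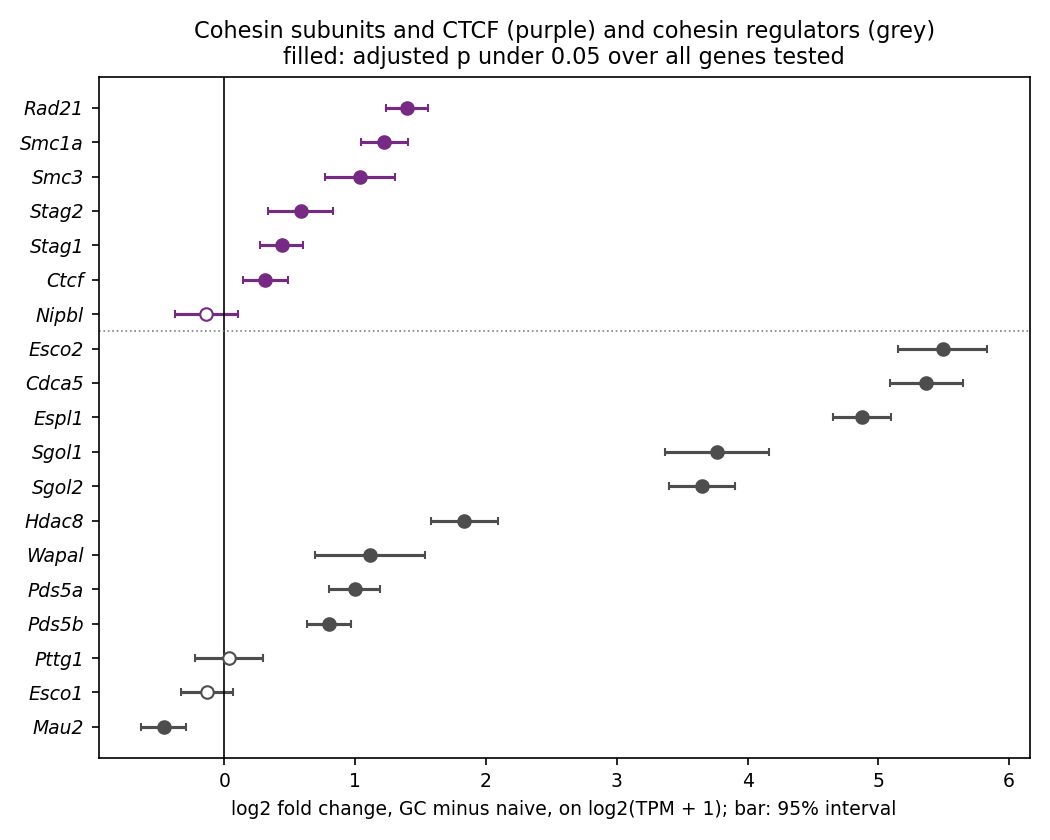
Log2 fold change, GC minus naive on log2(TPM + 1) (x axis), of the 7 genes (purple) and of the 12 cohesin regulators (grey), with bars for the 95% interval and filled points for a limma adjusted p under 0.05 over all genes tested. The ring subunits lie between 1.04 and 1.39 and the STAG genes and *Ctcf* between 0.31 and 0.58, whereas *Esco2*, *Cdca5* and *Espl1* lie above 4.8 and *Mau2* at -0.47.

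The changes were set beside those of genes of dividing cells and of condensin, the SMC complex that compacts mitotic chromosomes. All 14 markers of replication and mitosis were called higher in GC B cells, with a median log2 fold change of 5.11, led by *Mki67* (7.01, limma adjusted p = 5.28e-08), *Cdk1* (6.55, limma adjusted p = 2.90e-07) and *Top2a* (6.22, limma adjusted p = 1.13e-07). All 8 condensin genes were called higher as well, with a median of 3.32, and the largest were *Ncapg* (5.42, limma adjusted p = 7.98e-06), *Ncaph* (4.92, limma adjusted p = 1.28e-06) and *Ncapg2* (4.21, limma adjusted p = 2.81e-07). Of all genes tested, 35.5% were called higher and 30.1% lower. Some of the markers, among them *Mki67* and *Cdk1*, were under 1 TPM in every naive pool and passed the filter through the GC pools alone. Of the condensin genes, *Ncapg* reached 1 TPM only in naive replicate 1 (1.86 TPM), and *Ncapg2* was under it in naive replicate 1 (0.945 TPM). Both needed GC pools to pass the filter. The counts and medians of both lists carry this limit. *Rad21*, with the largest change among the 7 genes, was below the median of both lists. Cell division and GC identity cannot be told apart in these pools.

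**Figure D5:**
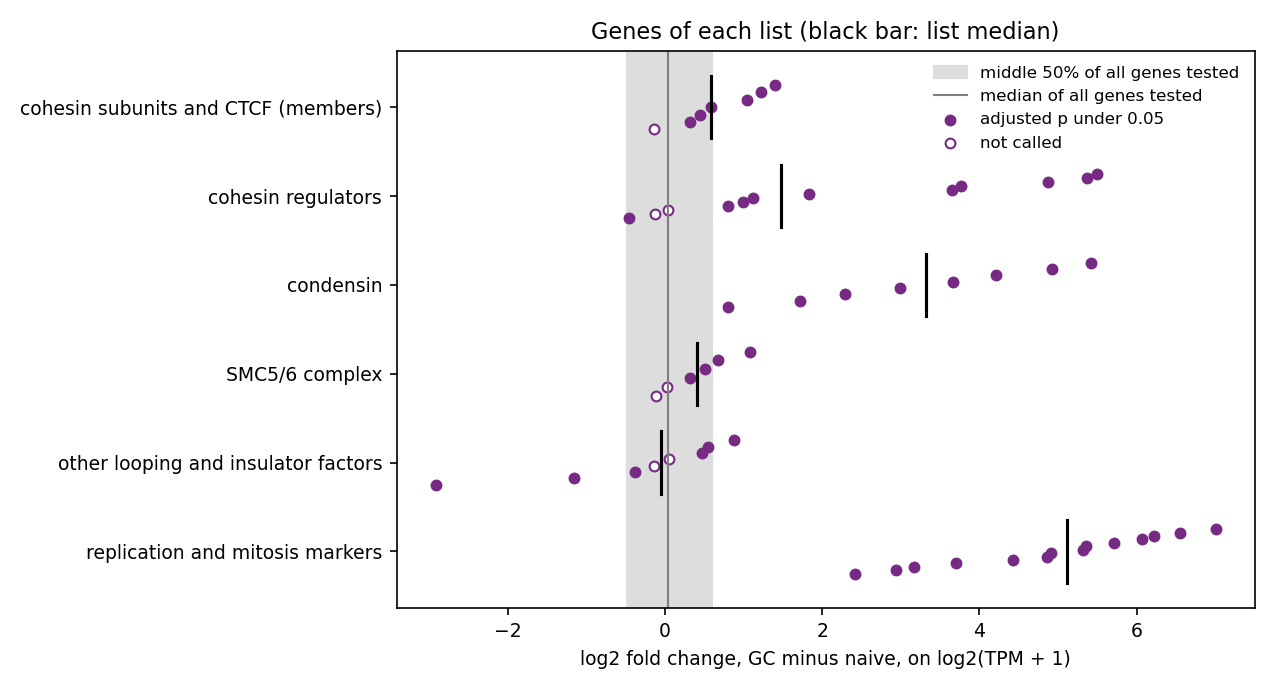
Log2 fold change, GC minus naive (x axis), of every gene tested in 6 lists (rows), with black bars for the list median, filled points for genes called by limma and open points for the others. The grey band is the middle 50% of all genes tested around their median of 0.03. The medians are 0.58 for the 7 genes, 1.47 for regulators, 3.32 for condensin, 0.41 for SMC5/6, -0.05 for other looping factors and 5.11 for replication and mitosis.

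The genes whose profile over the 6 pools was most like that of each of the 7 were found by the Euclidean distance of log2(TPM + 1) values centered on the gene mean. The nearest 2 were *Rap1a* and *Aars* for *Smc1a* (distances 0.104 and 0.112), *Eed* and *Msi2* for *Smc3* (0.0909 and 0.0953), and *Tubg1* and *Cyfip2* for *Rad21* (0.0674 and 0.0707). They were *Ehbp1l1* and *Psmg2* for *Stag1* (0.0607 and 0.0617), *Snx18* and *Thrap3* for *Stag2* (0.0839 and 0.0860), *Herc2* and *Stat5a* for *Nipbl* (0.0637 and 0.0646), and *Eif4g1* and *Kdm4a* for *Ctcf* (0.0512 and 0.0517). Such likeness was common for the genes that changed little, with 368 genes within a distance of 0.2 of *Ctcf* and 355 of *Stag1*, against 37 of *Smc3* and 58 of *Smc1a*. Among the 7 genes themselves, the ring subunits were between 0.257 (*Smc1a* and *Rad21*) and 0.468 (*Smc3* and *Rad21*) apart, *Ctcf* and *Stag1* were the nearest pair (0.206), and *Nipbl* and *Rad21* were the farthest (1.88).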

How the data were processed

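RNA-Seq reads were processed by the authors: demultiplexing with CASAVA 1.8, FastQC, adapter removal with cutadapt 1.9, and RSEM 1.2.25 for alignment to, and quantification of, mouse transcripts (NCBIm38 v75), with a fragment length of mean 180 and SD 50. The submitters' notes also list edgeR, whose role is not given in the sources used here. The authors deposited FPKM per gene and pool. A length-corrected value depends on the transcript lengths that RSEM assigns, and reads shared by genes are divided by its model.

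From these, TPM was computed as FPKM over the pool total times 1000000, and tests used log2(TPM + 1) (pseudocount 1) for the genes that reached 1 TPM in 3 or more of the 6 pools. The populations were compared in R 4.3.3 using limma 3.58.1 (lmFit, and eBayes with trend), at a Benjamini-Hochberg adjusted p under 0.05 over all genes tested. Ratios were tested with a two-sided exact permutation test over pools. Python 3.11.15, with numpy 2.4.6, pandas 2.3.3, scipy 1.17.1 and matplotlib 3.10.9, was used for the rest. The fit was tested on simulated data. Names came from the GENCODE annotation of NCBIM37 (33398 of 39179 identifiers), and coordinates and promoters from RefSeq on GRCm38.p6. For depth, the spacing of low FPKM values was taken over single-transcript genes of 250 to 900 bases. Only 69.2% to 76.4% of these values lay within 0.15 of a whole read, so depth is approximate and no count test was used.

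Named were all 7 genes, every cohesin regulator, of every other list up to 3 called genes with the largest change, and the 2 nearest profiles per gene. Members and lists were chosen with earlier results of these data known. Alternatives covered the pseudocount, filters, FPKM as deposited, other scalings, the variance trend, the replicate block, leaving out each pool and, chosen after seeing the data, a correction for base composition and transcript length (over the 86.3% of tested genes with a known length). ChIP-Seq, GRO-Seq and mutation data were not analysed here, and the summed level of general B cell markers is not reported here.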

Additional observations from a re-analysis of the deposited data

How the results depend on the processing

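Over 41 results and 600 alternative values, 573 kept their direction and side of the threshold, or for counts changed little or not at all. A count that went from 4 to 3, as for SMC5/6 genes called higher, was still taken as kept. Ratios could only keep or reverse their direction, since their exact permutation p cannot fall below 0.1. Called genes numbered 8392 as reported, between 6879 (mean of at least 5 TPM) and 8639 (no filter) under the other settings, 7960 with the replicate block, and 7656 to 8101 when 1 pool was left out. The share called higher was 54.1%, 47.8% after quantile normalization and 46.1% after the correction for base composition and length.

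*Nipbl* passed the test without naive replicate 3 (-0.24) and with that correction, with or without the block (-0.32). When 1 pool was left out, its value lay between -0.24 and -0.083, and the count of the 7 genes called lower went from 0 to 1 in these 3 settings. *Ctcf* lost its call with the correction and the block together (0.12). Regulators called lower went from 1 to 2 after quantile normalization, without naive replicate 3 and with the correction, and to 3 with correction and block, where *Esco1* and *Pttg1* joined *Mau2*. SMC5/6 genes called lower went from 0 to 2, and those called higher from 4 to 3, with the correction, with or without the block. Germline paralogs called higher went from 1 to 0 at a mean of at least 5 TPM, where *Stag3* was not tested, and to 2 without GC replicate 3 and with correction and block. *Pttg1* turned negative with FPKM as deposited (-0.016), quantile normalization (-0.069), median-of-ratios scaling (-0.0054), without GC replicate 2 (-0.074), without naive replicate 3 (-0.018) and with the correction (-0.24), and lay between -0.074 and 0.092 when 1 pool was left out. The cause of these changes was not tested.

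Whether replicate numbers pair the pools could not be settled, because all correlations were weak. Same-numbered pools correlated in their deviations at 0.083, 0.0225 and 0.0456, and pools of different numbers at -0.0746 to 0.0298. All but naive replicate 2 correlated best with their own number. The block by itself changed no call among the 7 genes. Whether pools shared mice is not given in the sources used here, and 3 pools per population limit the precision of every value.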

Other observations

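Of 7 genes listed for the SMC5/6 complex, which acts in replication and repair, 6 were found and tested, and 4 of them were called higher in GC B cells (median log2 fold change 0.41), against 35.5% of all genes tested. With the correction for base composition and length, 3 were called higher and 2 lower. The largest changes were those of *Nsmce2*, its SUMO ligase (1.08, limma adjusted p = 2.88e-05), *Smc5* (0.67, limma adjusted p = 0.00149) and *Nsmce1* (0.51, limma adjusted p = 0.000201). *Nsmce2* measured 44.0, 41.0 and 38.4 TPM in GC replicates 1, 2 and 3 and at 19.5, 19.1 and 18.1 TPM in the naive replicates, without overlap.

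Of 8 other looping and insulator factors, 3 were called higher, 3 lower and 2 were not called (median -0.05), shares near the 35.5% called higher and 30.1% called lower among all genes tested. *Satb1*, a genome organizer best known from T cells, fell from 93.6, 95.9 and 84.8 TPM in naive replicates 1, 2 and 3 to 9.44, 10.9 and 13.6 TPM in the GC replicates (log2 fold change -2.92, limma adjusted p = 4.66e-06). *Ldb1*, which encodes a factor that bridges enhancers and promoters, fell from 300.1 ± 17.1 to 134 ± 5.96 TPM (SD, n = 3 each, log2 fold change -1.16, limma adjusted p = 7.88e-06). *Maz*, the gene of a zinc finger protein that binds beside CTCF, rose from 138 ± 4.23 to 253 ± 5.83 TPM (SD, n = 3 each, log2 fold change 0.87, limma adjusted p = 6.57e-06), a larger change than that of *Ctcf*.

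Of 5 germline paralogs of cohesin subunits and CTCF, 1 was at 0 in all pools (*Rad21l*) and 3 were under 1 TPM in all pools (*Rad21l*, *Smc1b* and *Ctcfl*, named after their values were seen). *Stag3*, a meiotic STAG subunit, had 2.74, 3.57 and 2.42 TPM in GC replicates 1, 2 and 3 and 0.351, 0.794 and 0.207 TPM in the naive replicates, with a log2 fold change of 1.44 (limma adjusted p = 0.000905), at levels below those of *Stag1* and *Stag2* in every pool. It passed the filter on low values through the GC pools alone.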
